A study of Mus musculus with 9 samples.

Results

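The transcripts of control LKS+ cells were described from the 3 arrays labelled as control, out of 9 arrays in the series. LKS+ names the marrow cells that lack markers of mature lineages and carry KIT and SCA-1 on their surface; the labels call the control cells normal hematopoietic stem cells. The control cells were sorted as CD45.1+ LKS+ cells from the bone marrow of C57BL/6 mice aged 8 weeks, and the control arrays carry no time label. The other 6 arrays hold LKS+ cells of leukemic mice and were not compared here. The labels call the 3 control arrays biological replicates, but do not say whether each came from its own animal or sort. RNA was amplified in 2 cycles before labelling, and each sample was hybridised to 1 Affymetrix Mouse Genome 430 2.0 array. Each of the 18193 genes with a probe set of its own was represented by its brightest probe set and ranked by mean log2 intensity. Such a rank is an order of probe signal, which depends on how well a probe set binds its transcript, and is not an order of RNA copies.

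The LKS+ gate holds long-term stem cells, short-term stem cells and multipotent progenitors, which together can form every blood lineage. KIT is the receptor for stem cell factor, the FLT3 receptor is carried by multipotent progenitors, CD34 is a surface glycoprotein of progenitors, and MEIS1 is a homeobox factor that partners HOX proteins. Most long-term stem cells in adult marrow rest outside the cell cycle, whereas multipotent progenitors divide and already transcribe genes of the myeloid or lymphoid lineage at a low level.

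All 4 genes that mark the cells gave strong signal in every control array. Kit gave 1704, 1766 and 1691 in replicates 1, 2 and 3 (1720 ± 40.3, SD, n = 3), the order in which all values are listed here. Cd34 gave 2415, 2390 and 2607 (2471 ± 119), and Flt3 gave 2332, 2206 and 2763 (2434 ± 292). Meis1 gave 605, 627 and 582 (605 ± 22.9). Kit, Cd34 and Flt3 stood at the 97.6, 98.7 and 98.6 percentiles of all genes and Meis1 at 89.2. These values alone do not test the LKS+ label, since Ly6a, the gene of SCA-1, was not analysed. The median gene gave an intensity of 55.5. The second Kit probe set gave only 176, 191 and 195, which shows how far probe sets of 1 gene can lie apart: among the 9010 genes with several probe sets, the brightest and the next differed by over 4-fold in 25.9%.

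A gene was taken to have signal where, in all 3 arrays, its value exceeded that array's 40th percentile over every probe set, an intensity of 14.2 to 14.5. By this filter 12128 genes (66.7%) had signal, and 5527 had it in no array. The counts of genes with signal in the lists below are to be read beside this share. Of 76 chemosensory receptor genes, which have no known role in blood, 8 passed the same filter (10.5%), and the brightest of them reached a mean of 37.8. Values up to about that level are therefore not well separated from background, and low signal is named below with its value.

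Among surface proteins of stem cells and progenitors, 23 of 24 genes had signal. Ptprc, which encodes the pan-leukocyte CD45 molecule, gave 2592, 2646 and 2576. Cd93 and Cd44, both adhesion receptors of early progenitors, gave 2124, 1985 and 2417, and 1586, 1714 and 1664. Cd48, a marker used to set multipotent progenitors apart from long-term stem cells, gave 1200, 1359 and 1202. These arrays lay close together for each gene, with ranges of 1.25-fold for Flt3 and 1.04-fold for Kit. Genes used to mark the long-term stem cell had signal as well. Procr, the endothelial protein C receptor, gave 382, 370 and 379. Slamf1, which encodes CD150, gave 147, 104 and 109. Tek, the angiopoietin receptor TIE2, gave 81.5, 90.1 and 66.3, and Esam and Itga2b gave 258 to 268 and 231 to 262. Slamf1 was highest in replicate 1 and Tek lowest in replicate 3. The gene of SCA-1, Ly6a, was not analysed here.

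**Figure D1:**
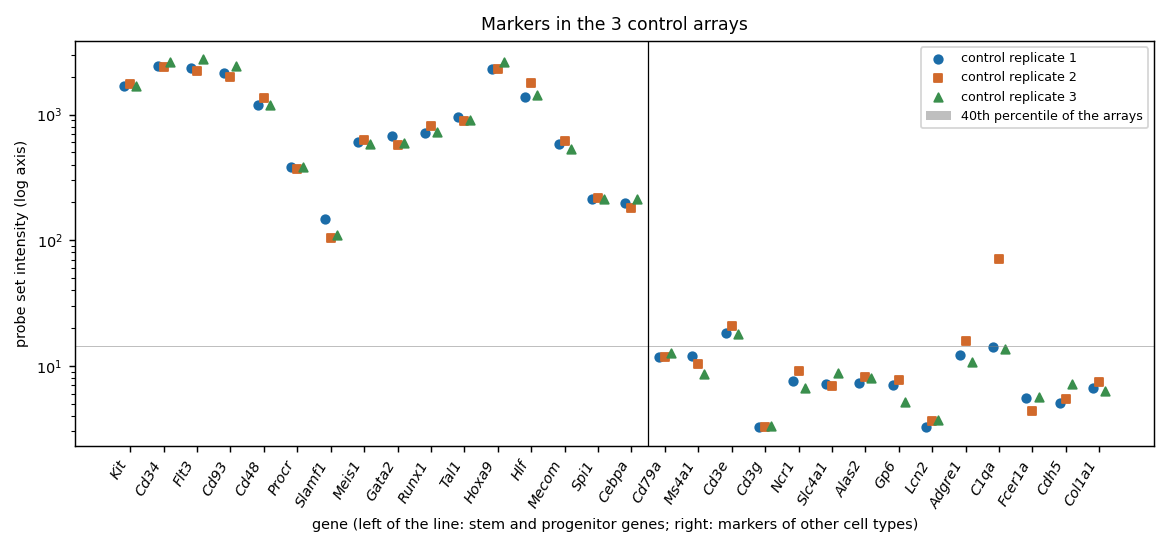
Probe set intensity (log axis) of stem and progenitor genes, left of the vertical line, and of markers of other cell types, right of it, with 1 point for each of the 3 control arrays; the grey line is the 40th percentile of the arrays. Kit, Cd34 and Flt3 lie between 1691 and 2763, while most of the markers shown for other cells lie at or below the grey line. The markers shown are a choice, and other members of their lists, such as Pf4, Gp9, Elane, Mpo, Cpa3 and Dntt, had signal. In all, 13 of 17 megakaryocyte and platelet, 10 of 16 neutrophil and 9 of 14 B cell genes had signal, against 66.7% of all genes. Points above it include C1qa at 70.2 in replicate 2, Adgre1 in replicate 2, and Cd3e.

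Transcription factors that hold the stem cell state had signal in 37 of 39 cases, at a median percentile of 88.6 among all genes. Myb, required for definitive blood formation, gave 5389, 5576 and 5741. Lmo2, the bridging protein of the TAL1 complex, gave 4604, 4693 and 4762. Cbfb, the partner of RUNX proteins, gave 2456, 2590 and 2587, and Hoxa9, a homeobox factor that expands progenitors, gave 2302, 2290 and 2609. For all 4 the arrays differed by less than 1.15-fold. Factors often placed at the centre of the stem cell network gave middle to high signal. Tal1 gave 950, 891 and 910, Runx1 gave 713, 816 and 733, Gata2 gave 680, 572 and 590, and Mecom gave 580, 612 and 536. Hlf, a basic leucine zipper factor enriched in stem cells, gave 1374, 1770 and 1434 and was highest in replicate 2, with a range of 1.29-fold. Its second probe set gave 554, 605 and 523, also highest in replicate 2. Within the Hox genes, Hoxa5, Hoxa7 and Hoxb4 gave means of 203, 156 and 113, and Hoxa10 and Hoxb5 gave 36.8 and 17.8. Hoxb6 and Sox17, a factor of fetal stem cells, had no signal.

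Factors that direct single lineages had signal in 17 of 22 cases, with a median percentile of 57.4. Bcl11a, needed for B cell and stem cell function, gave 1161, 1176 and 1162, and Tcf4 and Notch1, both used in lymphoid priming, gave 908, 864 and 993, and 865, 757 and 1179. Irf8, which directs monocyte and dendritic fate, gave 631, 412 and 691. The myeloid factors Spi1 (PU.1) and Cebpa gave 213, 215 and 211, and 198, 180 and 211. Gata1, the master factor of erythroid and megakaryocytic cells, gave 203, 91.7 and 86.3, and its target and partner Klf1 gave 155, 36.1 and 44.8. Irf8 was low in replicate 2, and Gata1 and Klf1 were high in replicate 1. Ebf1 of B cells and Tbx21 and Eomes of NK and T cells had no signal in any array, and Pax5 and Irf4 passed in 1 array each, at 15.7 and 16.5.

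Genes that hold cells out of division and genes that run the cycle both gave signal. The arrays measure RNA of pooled cells, so whether single cells held both was not tested. All 29 measured genes of the quiescence list and all 39 cell cycle genes measured had signal, against 66.7% of all genes. The quiescence list also holds genes that drive the cycle, namely the D cyclins, Cdk4 and Cdk6. Cdkn1a (p21) gave 777, 710 and 853, Cdkn1b (p27) gave 631, 586 and 608, and Cdkn1c (p57), which maintains stem cell rest, gave 116, 119 and 112. Foxo3, a factor that protects resting stem cells, gave 1165, 1262 and 1341. Cdk6, the kinase for exit from rest, gave 3807, 3971 and 3764, and Ccnd2, its cyclin, gave 1966, 2201 and 1888. These 6 genes varied by at most 1.20-fold between arrays. On the side of the cycle, Pcna, the sliding clamp of DNA replication, gave 3978, 4696 and 3550, and the helicase subunit gene Mcm7 gave 3928, 4329 and 3798. Mki67 (Ki-67), absent from resting cells, gave 918, 1318 and 991. For Pcna, Mcm7 and Mki67 alike replicate 2 was the highest.

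Receptors for cytokines and growth factors had signal in 31 of 32 cases. Cxcr4, the receptor for the niche chemokine CXCL12, gave 773, 912 and 1124. Receptors of the transforming growth factor family followed, with Acvr1b at 811, 932 and 980 and Tgfbr2 at 848, 815 and 856. Csf1r, the macrophage colony-stimulating factor receptor, gave 727, 494 and 1000, a 2.03-fold range, and Il7r, the interleukin receptor of lymphoid progenitors, gave 121, 110 and 198. Cxcr4, Csf1r and Il7r were all highest in replicate 3. Epor, the erythropoietin receptor, gave 74.5, 42.1 and 45.1 and was highest in replicate 1. The signalling list had signal in 32 of 32 cases, led by the kinase genes Pim1 (2324, 2042 and 2556) and Pik3cd (1582, 1774 and 1821). Among survival genes, Mcl1, on which stem cells depend, gave 2382, 2177 and 2463, and Bcl2 gave 862, 839 and 854; 17 of 19 such genes had signal and Fas was among the 2 without.

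For adhesion to the niche, 21 of 23 genes had signal. Cd47, the signal that protects cells from phagocytosis, gave 4608, 4355 and 4550. The small GTPase genes Cdc42, Rhoa and Rac1, needed for homing, gave 2207, 2541 and 2245, 1407, 1357 and 1220, and 1275, 1275 and 1241. The integrin gene Itga4 gave 979, 890 and 971. Rhoa had the widest range of these 5 genes, at 1.15-fold. All 34 modifiers of DNA and histones had signal. Dnmt1, which copies DNA methylation, gave 1506, 1724 and 1524, and Ezh2, the catalytic subunit of Polycomb complex PRC2, gave 1212, 1333 and 1134; both were highest in replicate 2. Dnmt3a gave 536, 495 and 605, and Tet2 gave 174, 160 and 288, both highest in replicate 3. Among 13 noncoding RNAs, 12 had signal, led by the small nucleolar host RNA Gas5 (5286, 4933 and 5286) and the nuclear RNA Malat1 (4994, 5309 and 4898).

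Markers of mature blood cells included genes with and without signal. Signal in all 3 arrays was found for 9 of 14 B cell, 10 of 16 T and NK cell, 9 of 14 erythroid, 13 of 17 megakaryocyte and platelet, 10 of 16 neutrophil, 12 of 20 monocyte and macrophage, and 6 of 13 mast cell, basophil and eosinophil genes, against 66.7% of all genes. The median percentile of these 7 lists ran from 25.4 for the mast cell list to 48.4 for the megakaryocyte list. Among the genes with no signal in any array were Cd79a and Ms4a1 of B cells, Cd3d and Cd3g of T cells, Ncr1 of NK cells, and Alas2, Slc4a1 and Hba-a1 of red cells. The same held for Lcn2 and Mmp9 of mature neutrophils, Fcer1a and Cma1 of mast cells, Cdh5 of endothelium, and Col1a1 of stroma. Cd3e reached at most 20.8, within the range of the chemosensory receptor genes, and Adgre1, which encodes the macrophage protein F4/80, gave 12.2, 15.8 and 10.8. Ly6g was not analysed here. Some members of these lists are known to be transcribed by immature cells too.

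Genes of early lineage priming were among the brightest of these members. Mpo, the myeloperoxidase of granulocyte precursors, gave 3524, 3214 and 3866, and Prtn3 and Ctsg, proteases of primary granules, gave 1984, 1786 and 2114, and 1377, 1037 and 1385. Elane, the elastase of the same granules, gave only 79.8, 52.7 and 63.3. Dntt, the terminal transferase of early lymphoid progenitors, gave 3991, 3076 and 4382, and Ighm gave 1559, 1335 and 1738. Replicate 2 was lowest for all of Mpo, Prtn3, Ctsg, Elane, Dntt and Ighm, and replicate 3 was highest for all but Elane. Car2, a carbonic anhydrase, gave 3961, 4130 and 3652, and Nkg7 gave 781, 776 and 669. Pf4, the platelet factor, gave 151, 163 and 119 and Gp9 gave 103, 100 and 81.9, both lowest in replicate 3. In the list of endothelial and stromal genes, Angpt1, the ligand of TIE2, gave 1663, 1715 and 1644, and Pdgfrb gave 771, 739 and 803, while the defining Cdh5 and Col1a1 reached at most 7.12 and 7.46. Whether other cells in the sort add to any of these values was not tested.

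The genes with the highest signal were those of protein synthesis. Of the 30 highest, 19 encode cytosolic ribosomal proteins, and of the 100 highest, 35 do, with 10 translation factors, 6 immediate-early genes and 6 cytoskeletal genes. Rps29 led with 12015, 12131 and 12052. The elongation factor gene Eef1a1 gave 11235, 11237 and 11233, and Tpt1, a translationally controlled protein, gave 10919, 11014 and 10840. These arrays were nearly equal, and over the 100 highest genes the median SD of log2 intensity was 0.029. Other leaders were Tmsb10, an actin-binding thymosin (9938, 9643 and 9816), the poly(A)-binding protein gene Pabpc1 (9726, 9533 and 9758) and Actb (8004, 7805 and 8363). H2-K1, an MHC class I heavy chain, gave 8259, 7913 and 8207, and B2m, its light chain, gave 7562, 8062 and 7012. The 100 genes spanned mean intensities of 4177 to 12066 and held 13.95% of the summed intensity of all genes. The splicing factor gene Sf1 ranked 19 through a probe set at 8299, 8456 and 8418, but its next probe set gave 644, 674 and 694.

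This order depended on the kind of probe set. Of the 100 highest genes, 78 were represented by a probe set whose suffix marks probes that can bind several transcripts, against 20.4% of all genes. With such probe sets left out, 28 of the 100 genes stayed among the 100 highest and 6 of the 100 were ribosomal; 24 ribosomal genes have no other kind of probe set. Eef1a1, Rpsa, Fos, Zfp36l2, Rplp0, Srgn and Rpl19 then led. With the mean of all probe sets of a gene, 54 of the 100 were shared.

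Ribosomal protein genes are printed here by promoter, since they led the ranking together and the ranking used no sequence. A promoter was found in the RefSeq table (GRCm38.p6, from 250 bases before to 50 bases after the start) for 44 of the 50 ribosomal genes and for 14452 of all genes. The motif CCGGAAG, the core bound by ETS factors, searched on both strands, lay in 21 of the 44 (47.7%) against 15.0% of all promoters. It lay in 26 of 80 promoters of the 100 highest genes (32.5%) and in 12 of 50 (24%) once the ribosomal genes were left out. Among all genes with signal and a promoter it lay in 1946 of 9846, a larger share than over all promoters. The box TATAAA lay in 6 of the 44 ribosomal promoters (13.6%) against 11.5% of all. The stretches all lie before the start; they cover chr3:86142669-86142717 on the minus strand for Rps3a1, chr7:141447503-141447589 on the plus strand for Rplp2, chr12:28635954-28636007 on the minus strand for Rps7 and chr9:120127538-120127624 on the plus strand for Rpsa. Only genes whose promoter holds CCGGAAG before the start could be printed, so Rps29, which led the ranking, is not among them. Capitals mark CCGGAAG, or CTTCCGG where it lies on the other strand.
Rps3a1: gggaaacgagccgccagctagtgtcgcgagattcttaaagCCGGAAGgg
Rplp2: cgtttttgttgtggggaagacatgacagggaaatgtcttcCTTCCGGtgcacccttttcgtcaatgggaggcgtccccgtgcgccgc
Rps7: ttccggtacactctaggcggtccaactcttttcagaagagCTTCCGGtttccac
Rpsa: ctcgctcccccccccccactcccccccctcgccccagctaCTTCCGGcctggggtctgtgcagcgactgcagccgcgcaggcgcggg

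**Figure D2:**
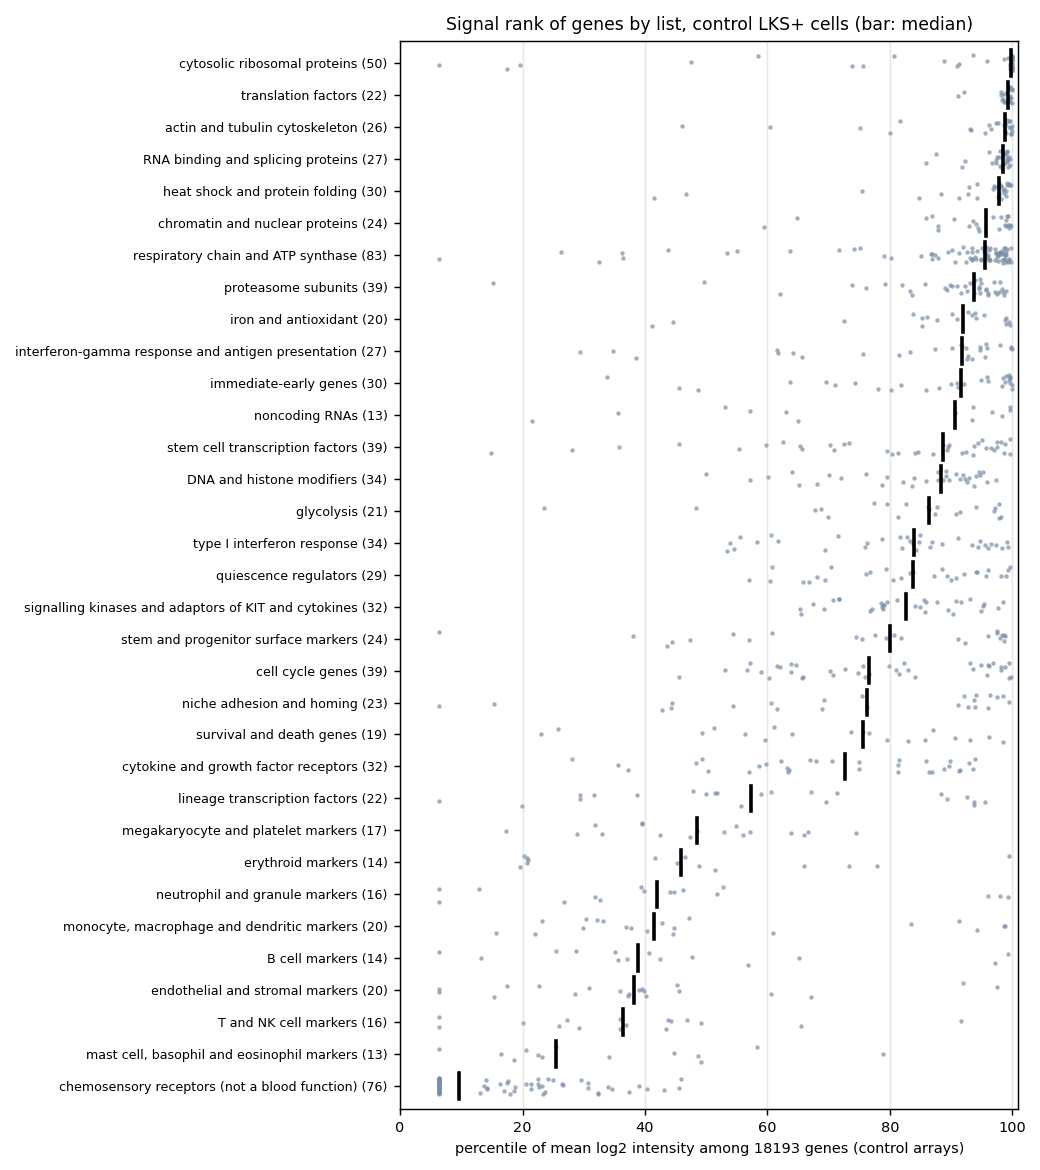
Percentile of mean log2 intensity among all 18193 genes for each gene of 33 lists, with the number of genes measured in brackets and a bar at the list's median. Ribosomal and translation genes stand at the right end, stem cell factors at a median of 88.6, markers of mature lineages below 50, and chemosensory receptor genes at the left end.

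Behind translation came genes of cell maintenance. The median percentile was 99.8 for 50 ribosomal genes, 99.3 for 22 translation factors and 98.7 for 26 cytoskeletal genes, against 50 for all genes by construction. It was 98.5 for RNA-binding proteins, 97.8 for chaperones, 95.5 for the respiratory chain with ATP synthase, and 86.4 for glycolysis. The chaperone gene Hspa8 gave 6169, 6392 and 6489, the antioxidant gene Gpx1 gave 6074, 5760 and 5984, and the respiratory subunit gene Cox6a1 gave 6873, 6742 and 6377. Pgk1 and Ldha led glycolysis with 2033, 2247 and 1838, and 1765, 2005 and 1774. Pgk1 had the widest range of these 5 genes, at 1.22-fold.

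Immediate-early genes, which cells switch on within minutes of a stimulus, gave signal in 29 of 30 cases at a median percentile of 91.6. Fos gave 8749, 7593 and 8899, and Jun, its partner in AP-1, gave 4954, 3343 and 4485. Egr1, a zinc finger factor linked to stem cell rest, gave 5665, 4974 and 5411. Nfkbia, the inhibitor of NF-kB, gave 5847, 4037 and 4973, Dusp1, a MAP kinase phosphatase, gave 5513, 4024 and 5166, and Zfp36l2, an RNA-binding protein that speeds mRNA decay, gave 7940, 7989 and 8163. Replicate 2 was lowest for Fos, Jun, Egr1, Nfkbia and Dusp1 but not for Zfp36l2. Myc, which drives growth, gave 1096, 1256 and 1370. Whether sorting and handling affected these levels was not tested.

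The 3 control arrays were close over the genes as a whole. The SD of log2 intensity had a median of 0.091 over the 12128 genes with signal and a 95th percentile of 0.256. The highest array exceeded the lowest by a median of 1.13-fold, and 38.2% of the genes lay within 1.1-fold. A range of 2-fold or more was found for 55 genes (0.453%), and for 19 and 29 genes without replicate 1 and without replicate 2. The median SD was 0.100 among the dimmest 1213 genes, 0.111 among the next 1213, of intensity 23.3 to 40.6, and 0.067 among the brightest 1213, of 876 and above. Across genes, which are not independent replicates, Pearson's r was 0.995 for replicates 1 and 2, 0.996 for 1 and 3, and 0.994 for 2 and 3. Of the genes with signal, 812 had exactly equal values in at least a pair of arrays and 43 in all 3. How the normalization set equal values is not given in the sources used here, and its part in the small spread was not tested.

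**Figure D3:**
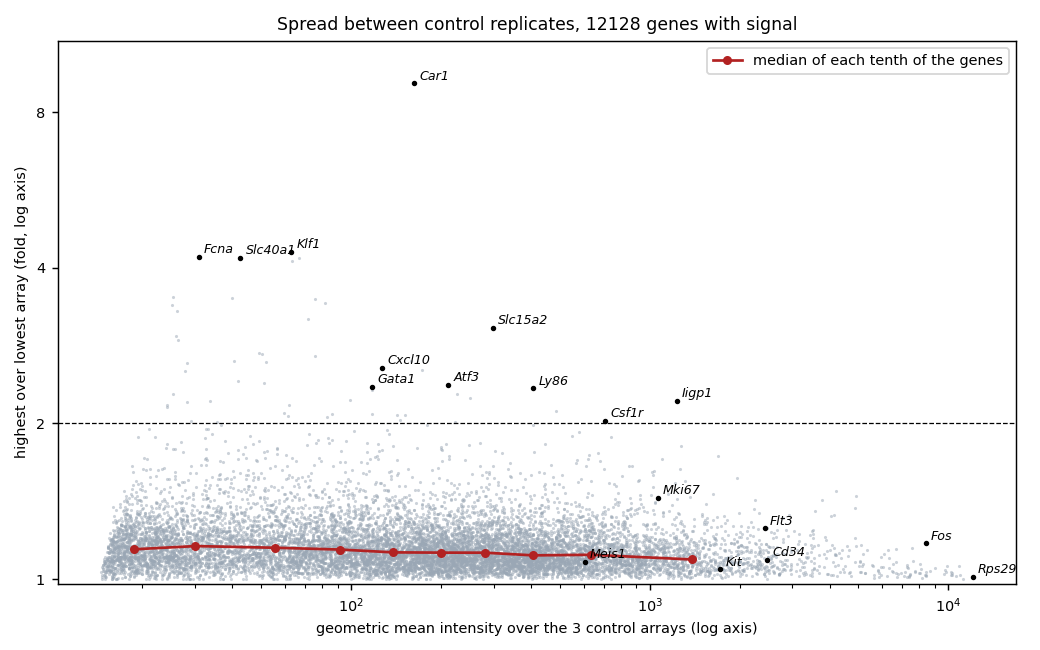
Highest over lowest of the 3 control arrays (fold, log axis) against geometric mean intensity (log axis) for the 12128 genes with signal; the red line joins the medians of 10 groups of equal size by intensity and the dashed line marks 2-fold. Most genes lie under the dashed line, Car1 reaches 9.09-fold, and Kit and Rps29 lie near 1.

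Over the 12128 genes with signal no array stood apart. The median deviation from the mean of the 3 arrays was 0.00, 0.01 and -0.01 log2 units. Replicate 1 was highest in 3285 genes (27.1%), replicate 2 in 4613 (38.0%) and replicate 3 in 3777 (31.1%). Against these shares, several gene groups leaned to 1 array, and each lean below kept its sign when the arrays were rescaled by quantiles or by their 75th percentile. With 3 arrays and no comparison between groups, these are descriptions without a test.

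Cell cycle genes were highest in replicate 2 in 36 of 39 cases, against 38.0% of all genes with signal, and lowest in replicate 3 in 28. Their median deviation was -0.10, 0.22 and -0.13 log2 units. Nuf2, a kinetochore gene, gave 169, 294 and 166, Tk1, a thymidine kinase, gave 195, 288 and 158, and Rrm2, the ribonucleotide reductase subunit, gave 776, 1151 and 696. Each stood highest in replicate 2. No cell cycle gene had a range of 2-fold, and Tk1 came closest at 1.83-fold. Immediate-early genes leaned the other way: replicate 2 was lowest in 23 of 29 and highest in 0, with median deviations of 0.10, -0.23 and 0.09. Atf3, a stress-induced factor, gave 313, 132 and 227, and Btg2, an antiproliferative gene, gave 743, 481 and 722. Atf3 was the only gene of that list with a 2-fold range.

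Interferon-responsive genes were highest in replicate 1. This held for 28 of 34 genes of the type I response, with median deviations of 0.19, -0.16 and -0.04, and for 23 of 26 genes of the interferon-gamma response and antigen presentation, with 0.25, -0.13 and -0.13. Replicate 1 was highest in 27.1% of all genes with signal. Iigp1, an immunity-related GTPase, gave 2000, 905 and 1026, and its second probe set gave 695, 308 and 265 in the same order of replicate 1 over the others. Gbp6, a guanylate-binding protein, gave 276, 105 and 139, and the chemokine gene Cxcl10 gave 222, 86.9 and 105. Igtp gave 1079, 572 and 655, and Ifit3, an inhibitor of viral translation, gave 151, 78.3 and 89.7. Replicate 1 stood alone for these 5 genes, and replicates 2 and 3 lay nearer to each other than to it. The MHC class II gene H2-Aa gave 583, 394 and 294. Stat2 went against its list with 72.8, 57.4 and 105, highest in replicate 3.

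Interferon-responsive promoters are printed because an element of such genes is known and both interferon lists leaned to replicate 1. Whether the lean within these lists goes with the element was not tested. The motif GAAA, any 2 bases, GAAA, the core of the interferon-stimulated response element, searched on both strands, lay in 11 of 23 type I promoters (47.8%) and in 9 of 20 of the interferon-gamma list (45.0%), against 3.63% of all promoters. Over the 360 genes with signal whose promoter holds it, replicate 1 was highest in 32.2%, against 26.7% of all genes with a promoter and signal. With the genes of both interferon lists left out the share was 29.1% of 340. The stretches cover chr5:92349053-92349139 (minus strand) for Cxcl10, chr19:34583333-34583422 (plus strand) for Ifit3, chr11:58199482-58199555 (plus strand) for Igtp and chr12:26456523-26456612 (minus strand) for Rsad2, which gave 1600, 981 and 1270. They also cover chr10:128270248-128270325 (plus strand) for Stat2, the gene that was highest in replicate 3, so a match alone did not go with replicate 1. Only genes whose promoter holds the motif before the start could be printed, so Gbp6, with a wider range than these, is not among them. Capitals mark the motif, which reads TTTC, any 2 bases, TTTC on the other strand.
Cxcl10: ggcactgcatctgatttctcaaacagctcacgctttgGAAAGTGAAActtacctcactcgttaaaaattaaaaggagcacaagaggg
Ifit3: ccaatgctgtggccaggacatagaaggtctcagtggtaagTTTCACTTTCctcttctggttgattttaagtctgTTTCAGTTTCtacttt
Igtp: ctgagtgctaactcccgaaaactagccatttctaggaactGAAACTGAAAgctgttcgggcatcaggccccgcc
Rsad2: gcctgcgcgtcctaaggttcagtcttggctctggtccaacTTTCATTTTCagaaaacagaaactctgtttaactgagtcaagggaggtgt
Stat2: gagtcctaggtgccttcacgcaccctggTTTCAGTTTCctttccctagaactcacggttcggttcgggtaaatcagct

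**Figure D4:**
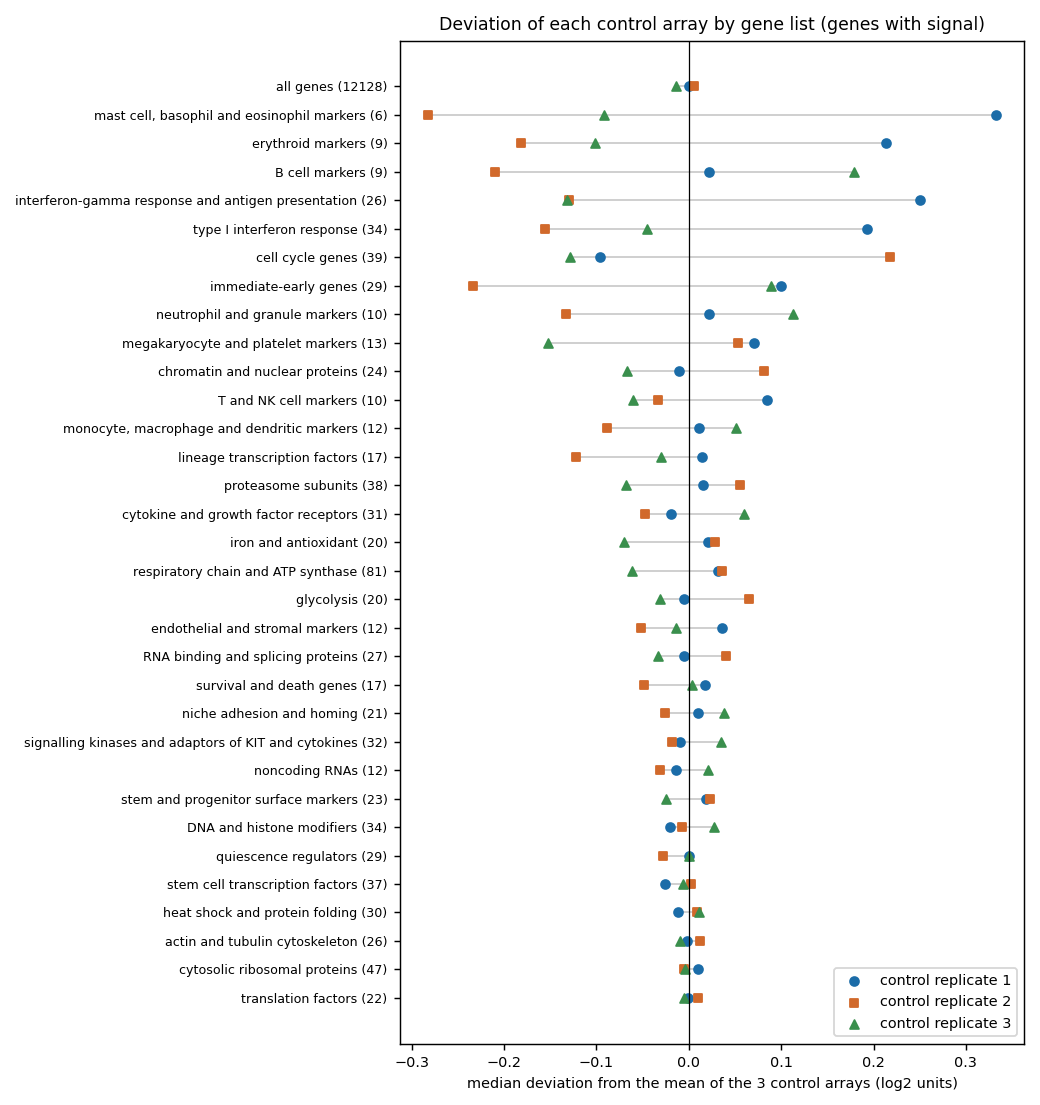
Median deviation of each control array from the mean of the 3 arrays (log2 units) for the genes with signal of each list, with their number in brackets. Ribosomal and stem cell factor genes lie near 0 in all arrays, cell cycle genes lie high in replicate 2, immediate-early genes low in replicate 2, and both interferon lists high in replicate 1.

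Erythroid, mast cell and macrophage genes were among those with the widest ranges. Of the 55 genes with a 2-fold range, the array that stood farthest from the others was replicate 1 in 31, always on the high side, replicate 2 in 20 and replicate 3 in 4. Car1, a carbonic anhydrase of erythroid progenitors, gave 672, 87.0 and 73.9, a 9.09-fold range that was the widest of the genes with signal. Klf1 gave 155, 36.1 and 44.8, Ermap, a red cell membrane protein, gave 90.4, 25.9 and 27.1, and Aqp1, a water channel of red cells, gave 167, 54.4 and 48.0. Gata1 and Epor were also highest in replicate 1. In the erythroid list 7 of 9 genes with signal were highest in replicate 1, with median deviations of 0.21, -0.18 and -0.10 and summed intensities of 5611, 5026 and 4405 over all 14 members; with the filter at the 60th percentile the value of replicate 2 turned to 0.0173. Genes of late red cells, Alas2, Slc4a1 and Hba-a1, were without signal in replicate 1 as well (7.28, 7.22 and 7.36). Ms4a2, the beta chain of the IgE receptor, gave 94.3, 36.3 and 34.4, and Gzmb gave 90.1, 37.6 and 39.6; 5 of the 6 mast cell, basophil and eosinophil genes with signal were highest in replicate 1, among them Cpa3 (361, 296 and 301). Whether the share of erythroid or mast cell progenitors differed between the sorts was not tested, and fewer cells of a type cannot be told apart from less RNA per cell.

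A second set of wide ranges belonged to replicate 2. Fcna, a ficolin of tissue macrophages, gave 20.4, 77.7 and 18.5, Slc40a1, the iron exporter ferroportin, gave 39.3, 90.7 and 21.7, and Cd5l, a protein secreted by macrophages, gave 16.4, 57.6 and 17.2. The complement genes of macrophages, named after their values were seen, had the same order: C1qa gave 14.2, 70.2 and 13.5, C1qb gave 10.1, 59.5 and 11.3, and C1qc gave 10.02, 30.1 and 7.58. Mrc1, the mannose receptor, gave 6.17, 17.8 and 5.68, and Hmox1, heme oxygenase, gave 20.2, 42.8 and 18.7. In replicates 1 and 3 the C1q genes and Mrc1 lay below the 40th percentile, and in replicate 2 above it. The monocyte, macrophage and dendritic list as a whole did not share this order: 12 of its 20 genes had signal in all arrays, its summed intensity was 7461, 7129 and 8194, Marco had no signal in any array and Adgre1 passed in replicate 2 alone. Most of that sum comes from Lyz1, Flt3, Lyz2 and Csf1r, which progenitors also transcribe. Whether replicate 2 held macrophage RNA, and whether such RNA adds to its other values, was not tested.

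Replicate 2 was also lowest for genes of myeloid and lymphoid priming. Slc15a2, a peptide transporter, gave 355, 156 and 479, Ly86, a partner of the receptor RP105, gave 523, 235 and 550, and Csf1r and Irf8 were lowest there too. Among neutrophil and granule genes replicate 2 was lowest in 8 of 10 with signal, with median deviations of 0.02, -0.13 and 0.11, and among B cell genes in 7 of 9, with 0.02, -0.21 and 0.18. Replicate 3 was highest in 7 and 6 of these. For comparison, replicate 2 was lowest in 32.7% of all genes with signal and replicate 3 highest in 31.1%.

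Replicate 3 stood low for genes of energy supply and protein breakdown, by small amounts. It was lowest in 64 of 81 genes of the respiratory chain and ATP synthase, with a median deviation of -0.06 log2 units. Among proteasome genes it was lowest in 27 of 38, with -0.07, against 40.4% of all genes with signal. After quantile scaling these counts were 52 and 27. It was also lowest in 10 of 13 megakaryocyte and platelet genes, with -0.15, among them Gp5, a platelet glycoprotein gene (78.4, 72.2 and 59.6). By contrast the ribosomal list, the translation factors, the 37 stem cell factors and the 23 stem surface genes had median deviations of at most 0.03 in size in each array, and none of their members had a 2-fold range.

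**Figure D5:**
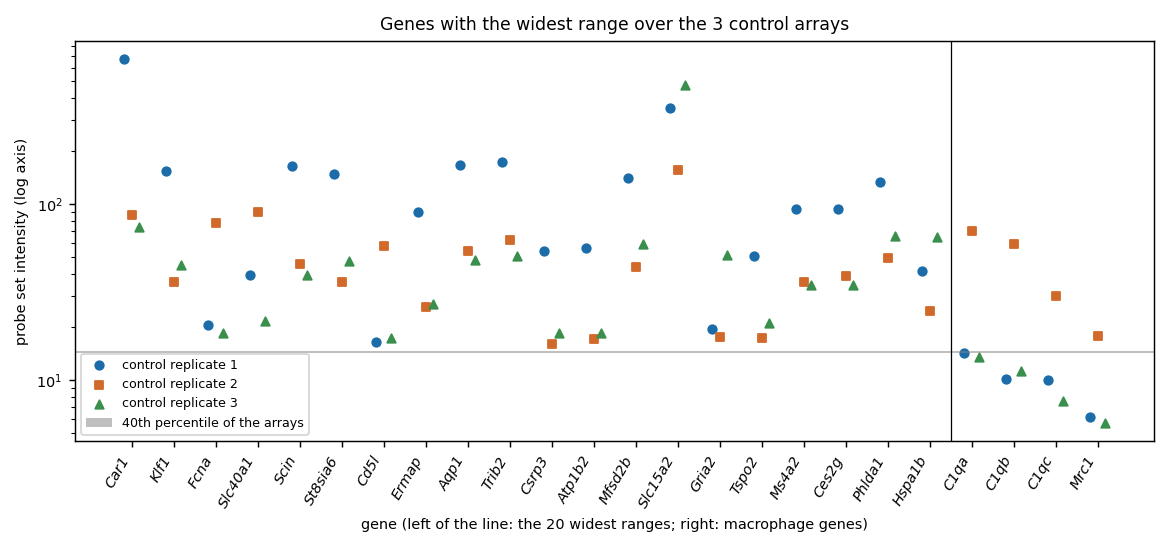
Probe set intensity (log axis) in the 3 control arrays for the 20 genes with signal that had the widest range, left of the vertical line, and for 4 macrophage genes, right of it. Replicate 1 is highest for Car1, Klf1 and Aqp1, and replicate 2 for Fcna, Slc40a1, Cd5l and the C1q genes.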

How the data were processed

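Total RNA of sorted cells was amplified, labelled and hybridised per the labels' protocols. The authors deposited 1 table of linear probe set intensities, normalized with Microarray Analysis Software 5.0 per the series' design text; background, scaling target and detection calls are not given in the sources used here. Values below the 20th percentile of the 3 control arrays (5.65) were set to it before log2. Of 45037 probe sets, 34945 carried 1 gene symbol in the platform annotation, 932 several and 9160 none; only the first were named, by the brightest per symbol. No test was run, since 1 group was described, and 3 arrays limit the precision of each SD. Genes were named as markers, the 30 highest, the leading members of each of 34 lists, regulators in them, and the 20 widest ranges. Members and lists were chosen with earlier results of these data known. The code was tested on simulated data. Python 3.11.15, pandas 2.3.3, NumPy 2.4.6 and matplotlib 3.10.9 were used. Alternatives covered scaling, floor, filter, choice of probe set and each replicate left out.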

Additional observations from a re-analysis of the deposited data

How the results depend on the processing

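The number of genes with signal was 12128 with the 40th percentile filter and 18193 with no filter; all genes then count. A 2-fold range was found for 55 genes, and for 27 with the filter at the 60th percentile, which leaves out dim genes. Leaving out 1 array at a time gave 19 to 39 such genes, 12195 to 12256 with signal, a median SD of 0.0656 to 0.0884, and 98 to 99 of the 100 highest genes; the lowest count, 19, was without replicate 1 and 29 without replicate 2. The list of the 100 highest kept 54 genes with the mean of probe sets and 28 without probe sets that carry a suffix. Of 408 median percentiles of lists recomputed, 60 moved by more than their SD between the arrays. The mean of probe sets gave 28 of these moves, and leaving out probe sets with a suffix gave 25. The lean of the erythroid list in replicate 2 turned from -0.18 to 0.0173 with the 60th percentile filter. Without replicate 1, the deviation turned to 0.00918 for lineage factors in replicate 2 (-0.0586 without replicate 3), and in replicate 3 to 0.0185 for the interferon-gamma list and 0.034 for the erythroid list, since the mean then rests on 2 arrays. Of 1119 deviations recomputed, 1112 stayed within the median SD of their list, 3 moved further and 4 of the larger ones changed sign. Small deviations that changed sign within that SD still count among the 1112. Of 2202 gene means recomputed, 2052 stayed within the SD between replicates. A change of filter cannot alter a gene mean, so those settings count among the 2052 by construction. Of the 150 means that moved, 108 did so with the mean of probe sets and 40 without probe sets that carry a suffix. No paired analysis was possible because the results describe 1 group and come from no test.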

Other observations

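Of the 100 genes with the highest signal, 25 belong to none of the lists. Some are known from blood cells. Srgn, the proteoglycan core of secretory granules, gave 7379, 7502 and 7154 in replicates 1, 2 and 3. Plac8, a gene of immature myeloid and lymphoid cells, gave 6981, 6099 and 6983, lowest in replicate 2 as the priming genes were. Sox4, a factor of early progenitors, gave 4359, 4102 and 4334, and Rgs1, a brake on chemokine receptor signalling, gave 5025, 4393 and 4337. Ctse, an aspartic protease, gave 4413, 4277 and 4277, with equal values in replicates 2 and 3. All 5 are represented by probe sets without a suffix, so leaving out probe sets with a suffix could not lower their rank. The second probe set of Ctse gave only 45.8, 46.8 and 43.9, and that of Sox4 gave 983, 877 and 990. Srgn, Plac8 and Rgs1 have 1 probe set each.

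Probe sets without a single gene symbol hold some of the strongest signal of the arrays and stood outside the ranking. A probe set that has no symbol in the annotation gave 13607, 13565 and 13307, the highest value of every control array. The probe set shared by Rps6 and its pseudogene symbol gave 13252, 13427 and 13179, and the one shared by Rpl13 and its pseudogene symbol gave 11512, 11330 and 11596. The leading ranked gene, Rps29, had a mean of 12066. Rps6 was still ranked, by a dimmer probe set that carries its symbol alone, and stood outside the 100 highest. The count of 35 ribosomal genes among the 100 highest therefore draws on none of these shared probe sets.

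Genes of the Y chromosome had signal in all 3 control arrays: Eif2s3y gave 250, 237 and 226, Kdm5d gave 184, 184 and 167, and Uty gave 80.2, 91.2 and 69.9. Xist gave 16.2, 17.5 and 13.3, near the 40th percentile of the arrays.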
